A study of Mus musculus with 4 samples.

Results

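The enzymes described here build and decorate the sugar chains of mucins, membrane glycoproteins, glycolipids and proteoglycans. They were taken by name from the table of expression in jejunal epithelium: the symbols that begin with Galnt, B3gnt, B3galt, B4galt, B4galnt, Fut, St3gal, St6gal, St8sia, Gcnt, Gal3st or Chst followed by a digit. This gave 88 of 22458 symbols in 12 name families, of which 42 had a mean of at least 1 FPKM (fragment counts scaled by library size and by transcript length) over the 4 libraries and were tested. Of the other 46, 37 lay under that mean and 9 were listed at 0 in every library. The names also took in St8sia3os, a transcript opposite St8sia3, and Fut4-ps1, a pseudogene, neither of which was tested.

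The study profiled epithelium of the adult mouse jejunum, released with EDTA, in 2 control and 2 mutant libraries labelled as biological replicates. All mice were of a mixed 129xC57/Bl6xSvJ background and all received 1 mg of tamoxifen on 5 days, an agent used to switch on inducible Cre. Controls were Cre-negative, and mutants carried the genotype Hnf4a;Cdx2 double-knockout, which targets 2 transcription factors of the intestinal epithelium. Neither the Cre driver nor the deleted exons could be named from the labels. The comparison asked which genes differ when both factors are targeted together.

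Mucin-type O-glycans begin when a Galnt enzyme attaches N-acetylgalactosamine to a serine or threonine. Core and branching enzymes (C1galt1, B3gnt6, Gcnt) then set the shape of the chain, galactosyl and N-acetylglucosaminyl transferases (B4galt, B3galt, B3gnt) lengthen it, and fucose, sialic acid, N-acetylgalactosamine or sulfate cap it. In the small intestine these caps make blood group and Lewis structures on mucus and on the brush border, where bacteria attach to them and feed on them.

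Depth is unknown, because the values are FPKM without counts. Paired values are given for replicate 1 and then replicate 2 of a group. The summed FPKM ran from 643708 to 689276 and 10635 to 10749 symbols had at least 1 FPKM in a library. Hnf4a stood at 156 and 202 FPKM in controls and at 31.6 and 48.2 in mutants (limma, adjusted p = 0.0147). Cdx2 stood at 70.9 and 65.2 in controls and higher, at 159.8 and 161 FPKM, in mutants (limma, adjusted p = 0.0150), against its label, so the mutant group is called the libraries labelled double-knockout. An FPKM over the whole gene also counts exons that a deletion leaves, so these values do not settle whether Cdx2 was cut. Epithelial markers fitted the labelled tissue, with Vil1 at 487 to 1024 FPKM, while 5 of 7 listed markers of stroma and endothelium stayed under 1 FPKM in every library.

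Of the 42 members tested, 5 rose and 5 fell in libraries labelled double-knockout (limma on log2(FPKM + 1), called at an adjusted p under 0.05). The members that rose were Fut2, Gcnt3, Fut4, Galnt4 and Fut8, and those that fell were Gal3st2, Gcnt4, St3gal1, B4galt5 and Galnt1. The share called was 23.8%, against 9.57% of the 10883 genes tested (3.77% higher and 5.80% lower). The median log2 fold change of the members was 0.11, against 0.02 over all genes tested. Groups did not overlap in 23 members (54.8%), against 60.7% of all genes tested, so this separation is near the background. The 10 called members are among these, so leaving out a library could not turn their direction. Nor could a changed pseudocount, filter, variance trend or replicate block. All 10 called members kept their direction in each of 11 alternative settings, but Gal3st2 was the only 1 of the 10 that kept its call in all of them. The call of the other 9 was lost without control replicate 1 (limma, adjusted p from 0.0516 to 0.139), of 8 without control replicate 2, of 6 without double-knockout replicate 1 and of 3 without double-knockout replicate 2. St3gal1 passed the filter through controls alone, so the filter fixed its direction and its call is not taken as a result. It stays in the counts, since the background counts hold such genes too. With 2 libraries a group an exact permutation test of 1 gene cannot give a p under 0.333.

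**Figure D1:**
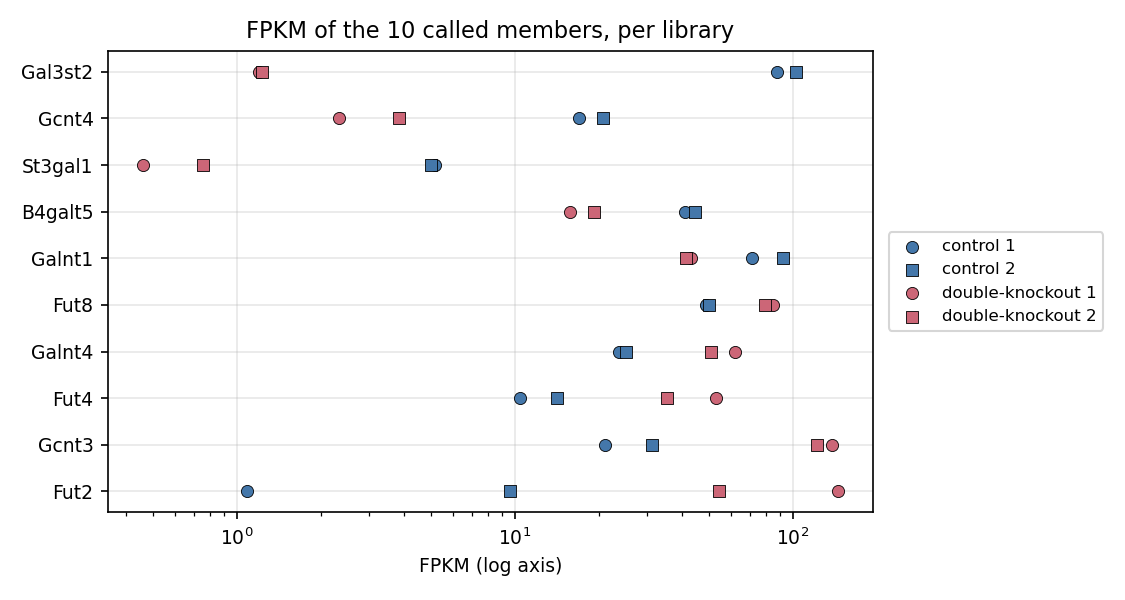
FPKM (horizontal log axis) of the 10 called members, with 1 point per library; blue marks controls, red the libraries labelled double-knockout, circles replicate 1 and squares replicate 2. The groups are apart in every row; Gal3st2 has the widest gap and Fut2 the widest spread between controls, from 1.09 to 9.61 FPKM.

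The authors' deposited table calls 10 of the tested members, 4 higher and 6 lower. Of all its rows with a completed test it calls 13.2% (5.90% higher and 7.31% lower). Those rows are not limited by the filter used here. B3galt5, B3gnt8 and Chst15 were under that filter, had a completed test there and were not called. Of the 10 members called by limma, 9 are also called in the authors' table. The table does not call Fut8 (q = 0.108) and does call B4galnt4 (q = 0.00913), at 2.80 ± 0.992 FPKM in controls and 0.728 ± 0.0748 in libraries labelled double-knockout by the per-library values (SD, n = 2 each; limma, adjusted p = 0.0628). B4galnt4 passed the filter used here through controls alone, which fixed its direction. That table was made from the same libraries and is no independent evidence.

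Promoter windows are shown for 3 of the members described below, chosen as the deepest fall (Gal3st2), a strong rise (Fut4) and the only member whose window held the HNF4-type letters (B3gnt3). The Fut8 start that holds the CDX-type letters, 1 of its 4 windows, is added. They come from RefSeq on build GRCm38.p6, which is not the mm9 build of the expression files, and run from 250 bases before to 50 bases after a start site. Each is printed 5′ to 3′ on the strand of the gene (plus for Gal3st2 and Fut8, minus for Fut4 and B3gnt3), with capitals marking a match to CAAAGNCCA (HNF4-type) or TTTATNG (CDX-type) on either strand.
Gal3st2 chr1:93861094-93861393: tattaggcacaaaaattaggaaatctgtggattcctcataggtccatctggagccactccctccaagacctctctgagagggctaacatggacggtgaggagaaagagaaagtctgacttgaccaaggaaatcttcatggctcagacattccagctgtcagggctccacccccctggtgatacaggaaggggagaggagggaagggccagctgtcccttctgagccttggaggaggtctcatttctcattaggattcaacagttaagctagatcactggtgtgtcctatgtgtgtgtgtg
Fut4 chr9:14752073-14752372: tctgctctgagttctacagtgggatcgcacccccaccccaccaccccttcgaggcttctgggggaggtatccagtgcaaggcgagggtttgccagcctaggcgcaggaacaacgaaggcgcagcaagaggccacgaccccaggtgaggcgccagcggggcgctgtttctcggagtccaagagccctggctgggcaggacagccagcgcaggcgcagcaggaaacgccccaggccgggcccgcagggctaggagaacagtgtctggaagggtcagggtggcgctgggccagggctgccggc
B3gnt3 chr8:71701751-71702050: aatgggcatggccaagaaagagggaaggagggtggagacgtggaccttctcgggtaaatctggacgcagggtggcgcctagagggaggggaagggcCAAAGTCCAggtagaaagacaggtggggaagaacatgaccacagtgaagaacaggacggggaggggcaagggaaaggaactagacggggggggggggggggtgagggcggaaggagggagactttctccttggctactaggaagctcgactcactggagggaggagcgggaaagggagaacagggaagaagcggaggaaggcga
Fut8 chr12:77388614-77388913: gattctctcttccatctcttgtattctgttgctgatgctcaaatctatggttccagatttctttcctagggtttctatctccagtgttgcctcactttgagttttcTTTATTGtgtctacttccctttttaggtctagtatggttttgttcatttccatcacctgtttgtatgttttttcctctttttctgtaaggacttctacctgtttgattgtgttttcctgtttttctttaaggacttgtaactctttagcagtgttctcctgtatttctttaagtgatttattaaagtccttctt
Windows were found for 31 of the 42 tested members, 44 windows in all. The HNF4-type letters stood in 1 of the 44, against 1.98% of all 32851 windows of 300 bases, and the CDX-type letters in 3, against 10.9%. The letters in B3gnt3 begin 154 bases before its start site. The members with CDX-type letters were Galnt11, Gcnt2 and Fut8, and the windows of Gal3st2, Gcnt4, B4galt5 and Fut4 held neither. A match is a description of letters, and a window without them says nothing of binding elsewhere.

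The 16 Galnt genes summed to 275 and 317 FPKM in controls and to 285 and 258 in libraries labelled double-knockout, so the summed level overlapped while single members moved in opposite directions. Galnt1 (chromosome 18, 24363845 to 24445317, mm9), an initiating enzyme of wide expression with the highest family mean over the 4 libraries, stood at 71.2 and 92.1 FPKM in controls and at 43.0 and 41.4 in libraries labelled double-knockout. It fell 1.94-fold (log2 fold change -0.93 ± 0.19, SE, limma, adjusted p = 0.0475), and the groups did not overlap. Galnt1 was the highest Galnt gene in control 2, Galnt4 the highest in both libraries labelled double-knockout, and in control 1 Galnt1 and Galnt6 were close. The call was lost in 8 of 11 alternatives, with the adjusted p between 0.0440 and 0.159 over all of them.

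Galnt4 (chromosome 10, 98570769 to 98575881), which adds sugars to peptides that already carry some, stood at 23.7 and 25.1 FPKM in controls and at 62.0 and 51.0 in libraries labelled double-knockout. It rose 2.31-fold (log2 fold change 1.17 ± 0.17, SE, limma, adjusted p = 0.0204), with no overlap. The whole 5113 bases of its locus lie inside Poc1b, whose own values were 8.79 and 7.46 FPKM in controls and 10.8 and 10.1 in the other group, and the rule that split reads between them is not stated. Galnt6 was close to Galnt1 in level, with 70.3 and 77.9 FPKM in controls and 46.6 and 42 in libraries labelled double-knockout. Its difference of -0.73 ± 0.16 on the log2 scale did not pass (SE, limma, adjusted p = 0.0561).

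The other 7 tested Galnt genes were not called. Galnt11 and Galnt7 had the greatest differences among them, with log2 fold changes of 0.71 and 0.50 (limma, adjusted p = 0.102 and 0.146), and no overlap between groups. Galnt2, Galnt3, Galnt5, Galnt10 and Galnt12 lay between -0.33 and 0.23 on the log2 scale. In controls Galnt1 held 25.9% and 29.1% of the summed family FPKM, and in libraries labelled double-knockout 15.1% and 16.0%. Galnt9, Galnt13, Galnt14, Galnt16 and Galnt18 lay under the filter, with 0.285 FPKM in any library at most, and Galnt15 was listed at 0.

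Gcnt enzymes add branches, such as the one that turns a linear O-glycan into core 2 or core 4. Of the 4 tested, 2 were called, in opposite directions, where limma called 9.57% of all genes tested. Gcnt3 (chromosome 9, 69879303 to 69885895), the mucin-type branching enzyme, stood at 21.0 and 31.2 FPKM in controls and at 138 and 122 in libraries labelled double-knockout. It rose 4.99-fold (log2 fold change 2.30 ± 0.23, SE, limma, adjusted p = 0.00926). Gcnt4 (chromosome 13, 97694644 to 97720869), another core 2 enzyme, stood at 17.0 and 20.8 FPKM in controls and at 2.32 and 3.82 in libraries labelled double-knockout. It fell 6.15-fold (log2 fold change -2.31 ± 0.24, SE, limma, adjusted p = 0.0100).

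In controls Gcnt3 and Gcnt4 were at like levels, 26.1 ± 7.19 and 18.9 ± 2.69 FPKM (SD, n = 2 each). In the libraries labelled double-knockout they were 130.2 ± 11.5 and 3.07 ± 1.06 (SD, n = 2 each). Gcnt3 thus went from 41.5% and 46.0% of the summed Gcnt FPKM to 87.0% and 86.8%, while the sum itself was 50.7 and 67.9 in controls and 159 and 141 in the other group. Gcnt2, which makes the I branch of the blood group I antigen, had a log2 fold change of 0.31 and Gcnt1 one of -0.39 (limma, adjusted p = 0.342 and 0.619). Gcnt1 spread from 0.827 to 3.37 FPKM between the controls, and its log2 fold change turned to 0.24 without control replicate 2. Gcnt7 did not exceed 0.0747 FPKM.

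Of the core enzymes outside the Gcnt family, C1galt1 makes core 1 and lies outside the name rule. It stood at 18.3 and 40.4 FPKM in controls and at 39.1 and 30.2 in libraries labelled double-knockout (limma, adjusted p = 0.636), with overlap. B3gnt6, the core 3 enzyme, stayed under the filter at 0.313 to 0.762 FPKM in the 4 libraries.

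**Figure D2:**
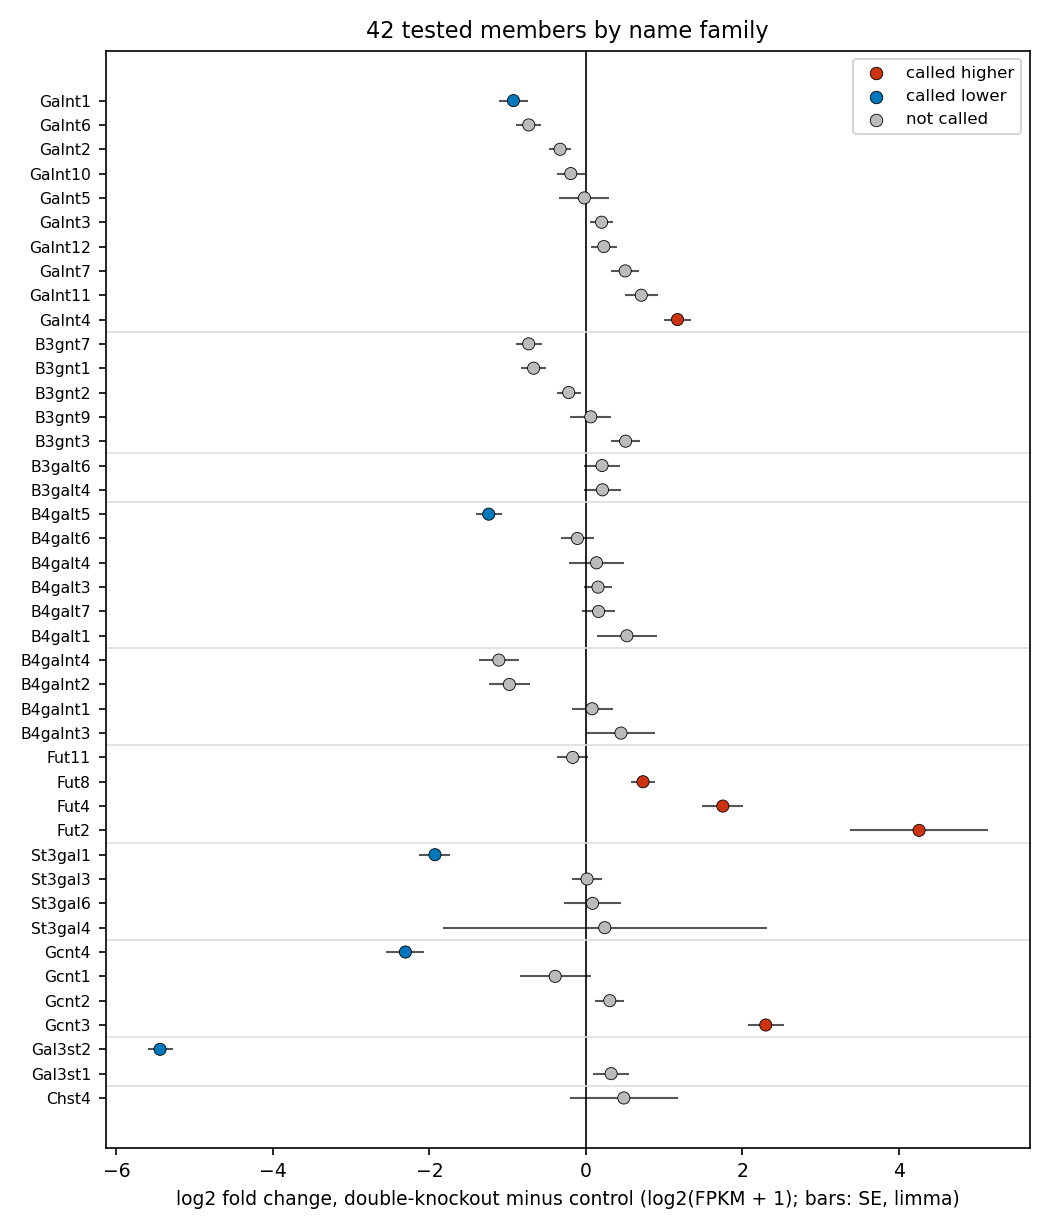
Log2 fold change on the log2(FPKM + 1) scale (horizontal axis, double-knockout minus control) of the 42 tested members, grouped by name family, with bars for the SE from limma; red points were called higher, blue lower, grey not called. Members of the Galnt, Gcnt and St3gal families lie on both sides of 0, the 3 called Fut genes lie above it, and St3gal4 has the widest bar.

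Of 13 tested members in the B3gnt, B3galt and B4galt families 1 was called, B4galt5 (chromosome 2, 167123945 to 167174678), which makes lactosylceramide, the base of most gangliosides and related glycolipids. It stood at 40.9 and 44.5 FPKM in controls and at 15.9 and 19.2 in libraries labelled double-knockout, 2.43-fold lower (log2 fold change -1.24 ± 0.17, SE, limma, adjusted p = 0.0176). B4galt6, which carries out the same step, stood at 26.9 and 37.2 FPKM in controls and at 31.6 and 27.2 in the other group, with overlap (limma, adjusted p = 0.777). Whether B4galt5 and B4galt6 differ from each other in their response was not tested.

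B4galt1, the family's highest by the mean over the 4 libraries but below B4galt5 in control 1, and an enzyme of N-acetyllactosamine and lactose synthesis, stood at 32.9 and 55.1 FPKM in controls and at 83.6 and 45.4 in libraries labelled double-knockout, with overlap (limma, adjusted p = 0.429). B4galt3, B4galt4 and B4galt7 had log2 fold changes between 0.14 and 0.16. The summed B4galt FPKM was 135 and 168 in controls and 171 and 125 in the other group.

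B3gnt3, which lengthens core 1 chains and leads its family, stood at 29.4 and 38.2 FPKM in controls and at 46.9 and 49.3 in libraries labelled double-knockout. The groups did not overlap, and the difference of 0.51 ± 0.19 on the log2 scale did not pass (SE, limma, adjusted p = 0.157). B3gnt7, an enzyme of keratan sulfate chains, stood at 8.29 and 9.79 FPKM in controls and at 4.88 and 5.19 in the other group (limma, adjusted p = 0.0616). B3gnt1, a symbol that has been used for more than 1 enzyme, had a log2 fold change of -0.67 (limma, adjusted p = 0.0665). B3gnt2, the main enzyme of poly-N-acetyllactosamine, had a log2 fold change of -0.22, again not called. B3galt4, a ganglioside enzyme at 8.02 and 6.89 FPKM in controls and 10.9 and 7.04 in the other group, and B3galt6, which acts on the linker of proteoglycan chains, had log2 fold changes of 0.21 each.

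At the edge of the filter, the members just above the mean of 1 FPKM were B3gnt9 (mean 1.17 FPKM) and B3galt6 (1.25), and those just below it were B3gnt8 (0.945) and B3galt5 (0.828). B3gnt8, an enzyme of poly-N-acetyllactosamine on branched N-glycans, was listed at 0.271 and 0.169 FPKM in controls and at 1.72 and 1.62 in libraries labelled double-knockout. B3galt5, which makes type 1 chains, spread from 0.188 to 1.55 FPKM within the latter group. B3gnt4, B3gnt5 and B4galt2 stayed under 0.5 FPKM in every library, B3galt2 was above 0 in control 2 alone, at 0.0327 FPKM, and B3galt1 was listed at 0 throughout.

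B4galnt2 and B4galnt1 were among the 3 members with a mean over 100 FPKM. B4galnt2 (chromosome 11, 95724873 to 95776185), which makes the Sda antigen on intestinal glycans, stood at 201 and 242 FPKM in controls and at 139 and 89.8 in libraries labelled double-knockout. The groups did not overlap, and the difference of -0.98 ± 0.26 on the log2 scale did not pass (SE, limma, adjusted p = 0.0868). B4galnt1, which makes the gangliosides GM2 and GD2 and the uncharged glycolipid GA2, stood at 174 and 139.7 FPKM in controls and at 202 and 134 in the other group, with overlap (limma, adjusted p = 0.873). St3gal5, the enzyme that adds the first sialic acid of gangliosides, was under the filter at 0.0370 to 0.120 FPKM, and St8sia1, which adds the second, at 0.0163 to 0.0428. B4galnt4, an enzyme of N-acetylgalactosamine-capped N-glycans, was 3.50 and 2.098 FPKM in controls and 0.675 and 0.780 in libraries labelled double-knockout. Its log2 fold change was -1.11 ± 0.26 (SE, limma, adjusted p = 0.0628), and its relative B4galnt3 one of 0.45 ± 0.44 (adjusted p = 0.553).

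Of the 4 tested Fut genes 3 were called higher and Fut11 was not called, where limma called 3.77% of all genes tested higher. The calls of Fut2 and Fut8 were lost in most alternatives. Fut2 (chromosome 7, 52903961 to 52921764), the secretor enzyme that adds alpha-1,2 fucose to make the H antigen of mucus and the brush border, stood at 1.09 and 9.61 FPKM in controls and at 145 and 54.4 in libraries labelled double-knockout. It was 18.7-fold higher by the group means, although both groups were wide, with the controls 8.83-fold apart and the others 2.67-fold. The log2 fold change was 4.26 ± 0.88 (SE, limma, adjusted p = 0.0497). This call was lost in 10 of 11 alternatives, with log2 fold changes between 3.09 and 5.43 and adjusted p between 0.0316 and 0.145. Each of the 2 libraries labelled double-knockout was higher than each control. The FPKM estimated for each library alone had the same order, 0.980 and 7.73 in controls and 133 and 54.2 in the other group.

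Fut4 (chromosome 9, 14552903 to 14556566), an alpha-1,3 fucosyltransferase of Lewis x structures, stood at 10.4 and 14.1 FPKM in controls and at 52.9 and 35.4 in libraries labelled double-knockout, 3.59-fold higher (log2 fold change 1.75 ± 0.26, SE, limma, adjusted p = 0.0226). Fut8 (chromosome 12, 78339091 to 78576983), which adds the core fucose of N-glycans, stood at 48.6 and 50.1 FPKM in controls and at 85.2 and 79.7 in the other group. It rose 1.67-fold (log2 fold change 0.73 ± 0.15, SE, limma, adjusted p = 0.0489), and this call was lost in 7 of 11 alternatives. Fut11 stood at 2.42 to 3.37 FPKM in the 4 libraries, with a log2 fold change of -0.17 (limma, adjusted p = 0.616). Fut1, the other H antigen enzyme, stayed under the filter at 0.288 to 0.538 FPKM, and Fut9 and Fut4-ps1 were listed at 0 in every library. Fut7 and Fut10 did not exceed 0.569 FPKM. Sec1, a relative that lies next to Fut2, was listed at 0 in 3 libraries and at 0.0998 FPKM in double-knockout replicate 1.

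The summed Fut FPKM was 64.5 and 76.9 in controls and 287 and 173 in libraries labelled double-knockout, a ratio of group means of 3.25. Fut8 held 75.4% and 65.1% of that sum in controls and 29.7% and 46.0% in the other group. Sums that did not overlap between groups were those of Fut, Gcnt and St6gal, higher, and of Gal3st and B4galnt, lower, in libraries labelled double-knockout. Groups did not overlap in 60.7% of all single genes tested, so such a separation is common. The St6gal sums were only 0.0638 and 0.251 FPKM in controls and 0.260 and 0.292 in the other group, and no St6gal gene was tested.

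**Figure D3:**
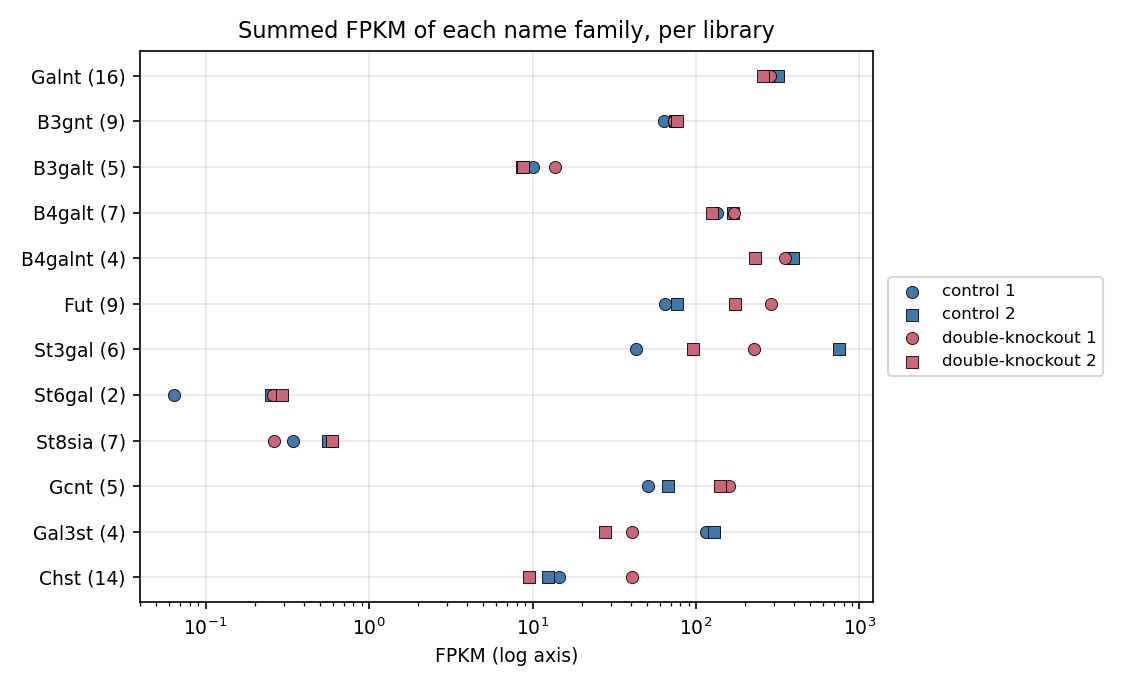
Summed FPKM (horizontal log axis) of each of the 12 name families, with 1 point per library and the number of members in brackets; blue marks controls, red the libraries labelled double-knockout, circles replicate 1 and squares replicate 2. Fut and Gcnt sums lie higher and Gal3st sums lower in both libraries labelled double-knockout than in both controls, and the St3gal sums span 43.2 to 753 FPKM within the controls.

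St3gal1 (chromosome 15, 66934437 to 67008444), which caps core 1 chains with alpha-2,3 sialic acid, stood at 5.18 and 5.01 FPKM in controls and at 0.458 and 0.758 in libraries labelled double-knockout. It was 8.38-fold lower (log2 fold change -1.93 ± 0.20, SE, limma, adjusted p = 0.00969), a direction fixed by the filter, which it passed through controls alone. On this scale the change of a gene at such a level is understated; with a pseudocount of 0.1 the log2 fold change was -2.91. St3gal3 and St3gal6, which act on N-acetyllactosamine ends, had log2 fold changes of 0.01 and 0.08 (limma, adjusted p = 0.972 and 0.904).

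St3gal4 (chromosome 9, 34854164 to 34924395), which also sialylates N-acetyllactosamine, had the highest mean of all members and the widest spread. It stood at 8.23 FPKM in control 1 and 687 in control 2, and at 183 and 47.1 in libraries labelled double-knockout. Both of the latter lie between the 2 controls, which were 83.5-fold apart. The log2 fold change was 0.24 ± 2.07 (SE, limma, adjusted p = 0.955), -2.87 without control replicate 1 and 3.35 without control replicate 2 (adjusted p = 0.165 and 0.167). The FPKM estimated for each library alone had the same order, with 7.14 and 535 in controls and 164 and 45.6 in the other group. Its sum sets that of the family: St3gal4 held 91.2% of the St3gal FPKM in control 2 and 19.1% in control 1. No statement on a difference between the genotypes can be made for this gene.

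St3gal2, which acts on core 1 and on gangliosides, was under the filter at 0.161 to 0.637 FPKM. None of the 2 St6gal and 7 St8sia genes reached the filter. The St6gal sum did not exceed 0.292 FPKM in any library and the St8sia sum did not exceed 0.592. St6gal1 stood at 0.0638 and 0.216 FPKM in controls and at 0.0784 and 0.103 in the other group, where St6gal2 was higher, at 0.182 and 0.190. St8sia4 led its family in every library, at 0.144 to 0.426 FPKM. Among sialyltransferases outside the name rule, St6galnac1, which makes the sialyl-Tn antigen of mucins, stood at 4.10 and 4.39 FPKM in controls and at 0.207 and a listed 0 in libraries labelled double-knockout. It was lower (log2 fold change -2.26 ± 0.21, SE, limma, adjusted p = 0.00809), a direction fixed by the filter, which it passed through controls alone. The authors' deposited table does not call St6galnac1 (q = 0.114). St6galnac2 had a log2 fold change of -0.03 (limma, adjusted p = 0.960).

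**Figure D4:**
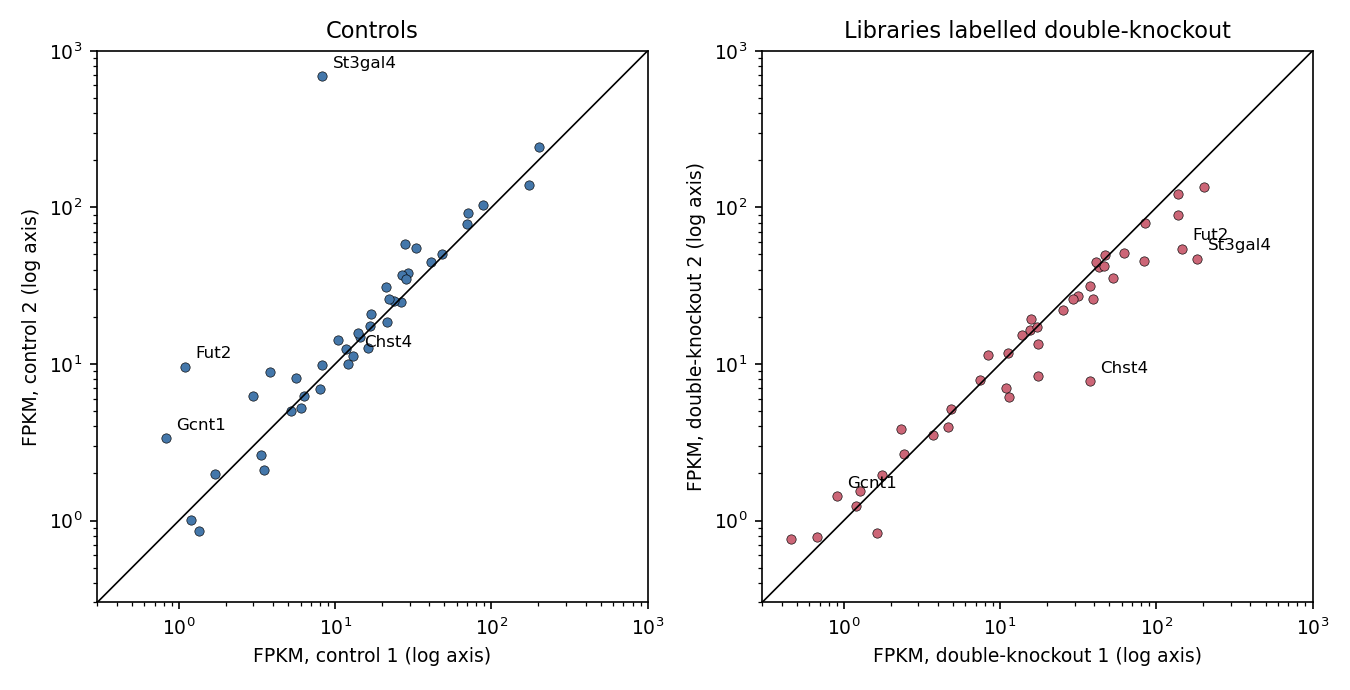
FPKM of the 42 tested members in replicate 2 (vertical log axis) against replicate 1 (horizontal log axis), for controls on the left and the libraries labelled double-knockout on the right; the line marks equal values. Most members lie near the line, while St3gal4, Fut2 and Gcnt1 lie above it in controls and Chst4, St3gal4 and Fut2 lie below it in the other group.

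Gal3st2 (chromosome 1, 95757921 to 95773071), which adds sulfate to galactose on glycoprotein chains, had the greatest change of all members. It stood at 87.9 and 103 FPKM in controls and at 1.20 and 1.23 in libraries labelled double-knockout. It fell 78.7-fold by the group means (log2 fold change -5.44 ± 0.16, SE, limma, adjusted p = 0.00133). The call held in all 11 alternatives, with log2 fold changes between -6.18 and -5.20 and adjusted p between 0.000667 and 0.0287. RefSeq on GRCm38.p6 lists relatives named Gal3st2b and Gal3st2c on the same chromosome, with Gm9994 and Gm6086 among their synonyms. Gm9994 stood at 3.21 and 3.001 FPKM in controls and was listed at 0 in both other libraries, and Gm6086 stood at 0.636 and 0.854 against 0.0781 and 0.0511. How reads shared by such copies were counted is not stated, so the level of Gal3st2 alone is uncertain.

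Gal3st1, which makes the glycolipid sulfatide, stood at 26.2 and 24.8 FPKM in controls and at 39.4 and 26.2 in libraries labelled double-knockout (limma, adjusted p = 0.417). In controls Gal3st2 held 76.8% and 80.4% of the summed Gal3st FPKM, and in the other group 2.93% and 4.44%. Gal3st3 and Gal3st4 did not exceed 0.333 FPKM. The family sum was 114 and 128 FPKM in controls and 40.8 and 27.7 in libraries labelled double-knockout.

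Of the 14 Chst genes only Chst4, a sulfotransferase of N-acetylglucosamine on mucin-like chains, passed the filter. It stood at 13.1 and 11.3 FPKM in controls and at 37.5 and 7.79 in libraries labelled double-knockout, which lie on both sides of the controls. The log2 fold change was 0.48 ± 0.69 (SE, limma, adjusted p = 0.690), 1.55 without double-knockout replicate 2 (adjusted p = 0.0431) and -0.58 without double-knockout replicate 1 (adjusted p = 0.255). Chst15, which sulfates chondroitin chains, reached 1.41 FPKM in double-knockout replicate 1 and 0.194 to 0.218 in the other libraries. Chst8 stood at 0.224 and 0.294 FPKM in controls and at 0.584 and 0.629 in the other group, and the other 8 Chst genes above 0 did not exceed 0.448. Chst5, Chst7 and Chst9 were listed at 0 in every library, which in FPKM files can be a failed estimate.

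Lists of 116 related genes, of which 113 were found and 78 tested, held 3 that rose and 5 that fell (limma, adjusted p under 0.05), near the background of all genes (3.77% higher and 5.80% lower). Of the 5, St6galnac1 and Mgat4c passed the filter through controls alone, which fixed their direction. The authors' deposited table calls 16 of the 79 with a completed test there, 4 higher and 12 lower, against that table's 5.90% higher and 7.31% lower over all rows. Among 29 tested genes of sugar and sulfate donor synthesis 1 rose and 3 fell. Gmds, the first enzyme of GDP-fucose synthesis from GDP-mannose, stood at 137.2 and 137.7 FPKM in controls and at 469 and 330.2 in libraries labelled double-knockout, 2.91-fold higher (limma, adjusted p = 0.0226). Tsta3, the next enzyme of that route, and Slc35c1, the Golgi carrier of GDP-fucose, were chosen after their values were seen and had log2 fold changes of -0.09 and 0.15 (limma, adjusted p = 0.718 and 0.671). The sign for Tsta3 turned to 0.02 with quantile normalization or with FPKM of each library alone, and that for Slc35c1 to -0.03 without double-knockout replicate 1.

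Gne, the first enzyme of sialic acid synthesis, stood at 25.6 and 26.4 FPKM in controls and at 11.6 and 12.9 in libraries labelled double-knockout, 2.12-fold lower (limma, adjusted p = 0.0207). Papss1, which makes the sulfate donor PAPS, stood at 51.3 and 54.2 FPKM in controls and at 23.1 and 16.4 in the other group, 2.67-fold lower (limma, adjusted p = 0.0220). Papss2, its relative, also chosen after its value was seen, had a log2 fold change of 0.07 (limma, adjusted p = 0.820), and -0.01 without control replicate 2. Galm, which prepares galactose for use, fell 2.71-fold (limma, adjusted p = 0.0168). Gmds, Gne, Papss1 and Galm each lost their call without control replicate 1 (limma, adjusted p from 0.0766 to 0.0995).

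Of 13 tested Golgi and reticulum carriers of sugar and sulfate donors 1 rose, Slc35d1, a carrier of UDP-linked sugars, from 11.3 and 13.8 FPKM in controls to 29.96 and 30.02 in the other group (limma, adjusted p = 0.0182). Among 14 tested enzymes of glycosaminoglycan chains 1 rose, Hs3st1, a heparan sulfate sulfotransferase, from 3.15 and 6.24 FPKM to 18.6 and 16.1 (limma, adjusted p = 0.0325). Among 22 other glycosyltransferases 2 were called and both were lower, St6galnac1 and Mgat4c, a relative of the N-glycan branching enzymes. Both passed the filter through controls alone, so the filter fixed their direction and their calls are not taken as a result. Mgat4c went from 12.1 and 63.7 FPKM in controls to 0.127 and 0.0557 in libraries labelled double-knockout (log2 fold change -4.74 ± 0.75, SE, limma, adjusted p = 0.0254). Without control replicate 1 Slc35d1 and Hs3st1 lost their call (adjusted p = 0.0783 and 0.0679), as did St6galnac1 (0.0592), while Mgat4c kept it (0.0214) and lost it without double-knockout replicate 1 (0.0766) or 2 (0.0944).

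**Figure D5:**
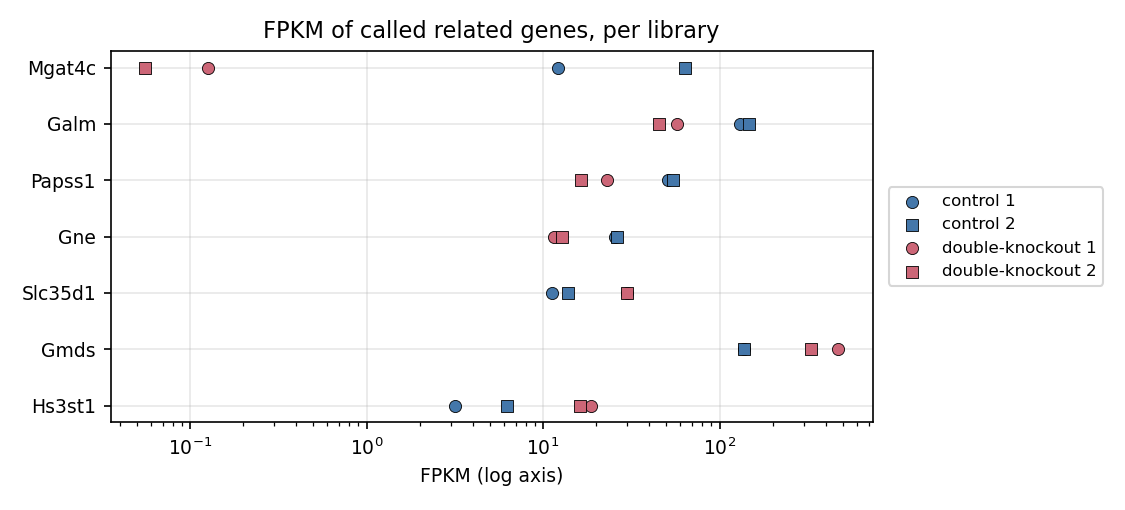
FPKM (horizontal log axis) of 7 called related genes, with 1 point per library; blue marks controls, red the libraries labelled double-knockout, circles replicate 1 and squares replicate 2. Mgat4c, Galm, Papss1 and Gne lie lower and Slc35d1, Gmds and Hs3st1 higher in both libraries labelled double-knockout; St6galnac1 is left out because it is listed at 0 in 1 library.

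In bulk samples fewer cells of a type and less RNA per cell cannot be told apart. None of 8 goblet cell markers was called (limma, 1 at an unadjusted p under 0.05, and none called in the authors' deposited table), and their summed level overlapped, with 18843 and 15879 FPKM in controls and 16209 and 12477 in libraries labelled double-knockout. Of 5 gastric surface mucous cell markers, Gkn1, Gkn2 and Tff2 summed to 0.221 and 0.212 FPKM in controls and to 3311 and 1517 in the other group, Tff1 was listed at 0 in every library, and Muc5ac did not exceed 0.00906 FPKM. Of 4 gastric gland markers, Aqp5, Pgc and Gif were each under 1 FPKM in controls and between 3.01 and 36.9 in libraries labelled double-knockout, and Muc6 did not exceed 0.0308 FPKM. These 6 genes passed the filter only through the group where they were high, so their calls as higher (limma) were fixed by the filter and are not counted as a result. The authors' deposited table calls none of the surface markers and 3 of the gland markers.

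Of all genes tested limma called 3.77% higher and 5.80% lower, and the authors' deposited table called 5.90% of its completed rows higher and 7.31% lower. Among the absorptive markers 4 of 10 fell (Vil1, Epcam, Lct and Sis), with sums of 25925 and 28475 FPKM in controls and 26193 and 17135 in libraries labelled double-knockout. The authors' deposited table calls Lct and Sis but neither Vil1 (q = 0.251) nor Epcam (q = 0.0879). Alpi and Cdh1, 2 absorptive or epithelial markers chosen after their values were seen, were higher in both libraries labelled double-knockout than in both controls and were not called (limma, adjusted p = 0.178 and 0.411); Alpi went from 447 and 645 FPKM to 1106 and 764. Enteroendocrine markers fell in 5 of 7, from sums of 369 and 307 FPKM to 119 and 85.9, with 6 of 7 called in the authors' deposited table. Of the 5, Neurod1 passed the filter through controls alone, at 3.13 and 3.03 FPKM against 0.428 and 0.301. The filter fixed its direction, so its call is not taken as a result. None of 6 Paneth cell markers was called by limma, with 3 at an unadjusted p under 0.05 and 2 called in the authors' deposited table. None of 4 tuft, 6 cycling crypt and 6 T cell markers was called either, nor had any an unadjusted p under 0.05 or a call in that table. Of 5 B and plasma cell markers 4 stayed under 1 FPKM in every library, and Igj, the joining chain of antibodies, stood at 1.29 and 0.793 FPKM in controls and at 2.54 and 3.63 in the other group. Igj was not called by limma (unadjusted p = 0.0101, adjusted p = 0.0723) and is called in the authors' deposited table (q = 0.0412). The tuft cell sum was 12.3 FPKM in control 1 and 53.4 in control 2, and 44.4 and 32.8 in the other group. The part of these cell types in the levels of the enzymes was not tested.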

How the data were processed

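RNA-seq was deposited for 4 libraries of mouse jejunal epithelium, 2 per genotype, grouped by sample title. The build mm9 and the tools Cuffdiff, Cuffnorm, Cufflinks (2.1.1) and TopHat2 (2.0.9) are named, per the submitters' processing notes, without roles; strandedness is not given in the sources used here. The authors deposited a table of 23735 rows taken as FPKM normalized between libraries (its header names no unit), FPKM for each library alone, and group FPKM, p-values and q-values of their own comparison, per the file headers. That table's log2 fold changes and test scores were not used, since some cells hold a spreadsheet error.

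Rows sharing a symbol were summed (160 symbols), and 1034 short RNA symbols were dropped. The 10883 genes whose mean reached 1 FPKM were tested on log2(FPKM + 1) in limma (3.58.1, under R 4.3.3), with a genotype term alone, an intensity trend, and two-sided Benjamini-Hochberg adjustment over all genes tested; the procedure was tested on simulated data. Locus starts were counted from 0 in the files and are given from 1. Members and lists were chosen with earlier results of these data known. Named by rule were called members, the member of each family with the highest mean over all libraries, uncalled members differing by at least 1 log2 unit without overlap, members next to the filter, and up to 4 called genes of each related list; the remaining members are named to account for them. Depth is unknown, so no counting error is given. The p-values and SE rest on the spread between these samples, which limma draws toward that of all genes tested at a like level. Alternatives changed pseudocount, filter, scaling, FPKM source, variance trend and replicate block, or left out a library.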

Additional observations from a re-analysis of the deposited data

How the results depend on the processing

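All 10 called members kept their direction in each of 11 alternatives. Their groups do not overlap, so leaving out a library or changing the pseudocount, filter, variance trend or replicate block could not turn it. Members called higher, 5 by the main test, numbered 3 without the intensity trend and 3 with the replicate block, and 0 to 4 when a library was left out; members called lower, 5, numbered 1 to 4 when a library was left out. Related genes called numbered 0 to 1 higher and 1 to 4 lower when a library was left out, against 3 and 5. Over all genes the calls were 410 higher and 631 lower; with no filter but a mean above 0 they were 268 and 439, and when a library was left out 65 to 301 and 86 to 384. Values estimated for each library alone gave 482 higher and 451 lower, with the median of all genes at 0.17 on the log2 scale against 0.02; the members called were then 5 higher and 4 lower.

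The replicate numbers share no stated source, and the deviations of same-numbered libraries from their group means correlated at -0.00481 across genes. With the replicate block 310 genes were called higher and 476 lower, and Fut2, Fut8 and Galnt1 were the members that lost their call (limma, adjusted p = 0.0707, 0.107 and 0.0823).

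Called members and related genes had groups apart, so leaving out a library could not turn their sign. The signs that turned were all in members and related genes that were not called. Leaving out each library in turn, log2 fold changes ran from -0.07 to 0.49 for B3galt4, -0.20 to 0.32 for B3gnt9, -0.21 to 0.37 for B4galnt1, -0.07 to 0.96 for B4galnt3, -0.01 to 0.32 for B4galt3, -0.35 to 0.62 for B4galt4, -0.34 to 0.12 for B4galt6, -0.08 to 0.40 for B4galt7, -0.58 to 1.55 for Chst4, -0.45 to 0.41 for Galnt5, -1.02 to 0.24 for Gcnt1, -0.06 to 0.09 for St3gal3, -2.87 to 3.35 for St3gal4, -0.44 to 0.61 for St3gal6, -0.03 to 0.33 for Slc35c1 and -0.01 to 0.15 for Papss2. B4galt6 and Galnt5 each stood at 0.12 with FPKM of each library alone, where Tsta3 stood at 0.02. With quantile normalization St3gal3 stood at -0.04 and Tsta3 at 0.02. Quantile normalization called B4galnt4 lower (-1.18, limma, adjusted p = 0.0475). B4galnt4 passed the filter through controls alone, which fixed its direction, so that call is not taken as a result. The causes were not tested. The FPKM hold no depth, which limits what can be said of members under 1 FPKM.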
